A study of Danio rerio with 8 samples.

Results

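Cytosolic ribosomal protein genes were examined in the ovary of adult female zebrafish fed TCDD, a tetrachlorinated dioxin and an agonist of the aryl hydrocarbon receptor. The members are the probe sets whose single annotated gene symbol begins with rpl or rps, with the rps6k kinases left out and the mitochondrial mrpl and mrps genes not included. There were 79 such probe sets for 74 gene symbols among 15502 probe sets on the array. They comprised 47 of large subunit genes, the stalk included, 30 of small subunit genes and 2 of rps19bp1, which carries the prefix but encodes an rps19 binding protein and no subunit. A filter on mean level kept 78 of the 79 for testing, of 9301 probe sets in all.

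Whole ovaries of AB strain females aged 6 to 8 months were taken after 15 days on trout chow carrying tritium-labelled TCDD at 0, 10, 40 or 100 ppb (ng per g of food). The control food had received acetone alone, and the solvent had been evaporated from every food. Each dose was represented by a single RNA pool made from 5 fish (3 µg per ovary), and the 4 pools were each measured on 2 arrays. The 2 arrays of a pool are technical repeats, so the p-values below measure the spread between arrays and not the variation between fish. Array 1 of the 0, 40 and 100 ppb pools was run on the same day (day 2), no other array shared day 1 with array 1 of the 10 ppb pool, and array 2 of every pool was run on day 3.

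Ribosomal proteins, together with ribosomal RNA, make up the large subunit, which holds the peptidyl transferase centre, and the small subunit, which decodes the message. Their mRNAs are abundant in growing cells and share a terminal oligopyrimidine tract at the 5' end, through which their translation is coupled to nutrient and mTOR signalling. Oocytes build up a store of ribosomes during oogenesis that serves the early embryo. In a whole ovary the transcripts of every cell type are measured together, and fewer cells of a type cannot be told apart from less RNA per cell.

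The ribosomal probe sets were among the brightest on every array. Their median intensity lay between the 98.6th and the 98.8th percentile of all probe sets, and 71 of the 78 tested ones were in the brightest 10% of the tested probe sets. The one that was not tested was 1 of 2 for rpl21, which read below the level of the tag control probe sets (probe sets that match no zebrafish transcript) on all 8 arrays. The other rpl21 probe set was bright, at 10.57 to 10.93 on the log2(intensity + 16) scale. All 79 members together held 5.97% and 6.38% of the summed intensity on the control arrays, 6.55% and 5.57% in the 10 ppb pool, 5.76% and 5.86% in the 40 ppb pool, and 5.68% and 5.97% in the 100 ppb pool. The 2 arrays of the 10 ppb pool thus held the highest and the lowest share of the 8. Both shares at 40 ppb lay under both control shares, and the higher share at 100 ppb equalled the lower control share at the printed precision.

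Array levels, tissue markers and the response to TCDD bear on all comparisons. The median intensity of an array ranged from 28.1 to 62.2, so the deposited values share no common scale. All 7 oocyte and germ cell markers on the array (bmp15, zar1, buc, ddx4, dazl, h1m and ccnb1) read above the tag controls on all arrays, with a summed share of 0.486% to 0.679%. Of 4 ovarian somatic markers on the array, amh read below the tag controls on all 8 arrays. The marker star did so on array 1 at 40 ppb and on both arrays at 100 ppb. The gene cyp1a, the textbook target of the receptor, read 5.37 and 5.53 on the control arrays, 8.60 and 7.27 in the 10 ppb pool, 8.75 and 8.41 in the 40 ppb pool, and 9.48 and 9.49 in the 100 ppb pool.

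At the dose of 100 ppb, 3 ribosomal probe sets fell against the control pool and 0 rose. They were rpl5a, which encodes a large subunit protein that binds 5S ribosomal RNA, rpl29, whose mammalian counterpart is also known as a heparan sulfate binding protein, and rpl22, an RNA binding large subunit protein known for its part in T cell development in mice and zebrafish. In the quantile scaling rpl5a fell by 0.76 ± 0.15 (log2 difference ± SE, 2 arrays per pool), rpl29 fell by 0.62 ± 0.11 and rpl22 fell by 0.56 ± 0.09. The adjusted p-values of limma, with Benjamini-Hochberg adjustment over the 9301 tested probe sets, were 0.0177, 0.0152 and 0.00901. The same threshold, an adjusted p under 0.05 with no minimum difference, was passed by 5.17% of all tested probe sets in either direction, 3.04% lower and 2.13% higher. The 3 of 78 members called thus form a share near that of all probe sets. At an unadjusted p under 0.05, 35 members were lower and 1 was higher, where 11.7% and 11.5% of all tested probe sets were lower and higher.

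On the control arrays rpl5a read 9.74 and 9.49 on the log2 scale, against 9.42 and 9.06 in the 10 ppb pool, 9.21 and 9.05 in the 40 ppb pool, and 8.95 and 8.76 in the 100 ppb pool. Every exposed array was below both control arrays, and both 100 ppb arrays were below all others. The difference from the control pool was -0.37 at 10 ppb and -0.49 at 40 ppb, neither of which passed (adjusted p = 0.257 and 0.223, limma). At 100 ppb the change against the control pool was -41.0%.

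The probe set of rpl29 read 11.15 and 11.22 on the control arrays, 10.85 and 10.80 in the 10 ppb pool, 10.79 and 10.57 in the 40 ppb pool, and 10.71 and 10.42 in the 100 ppb pool. The control arrays lay above every exposed array, and the 40 and 100 ppb pools overlapped. Its difference from control was -0.35 at 10 ppb and -0.51 at 40 ppb (adjusted p = 0.162 and 0.101, limma). The change at 100 ppb was -34.7%.

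For rpl22 the control arrays read 11.13 and 11.12. The 10 ppb arrays read 10.84 and 10.73, the 40 ppb arrays 10.74 and 10.66, and the 100 ppb arrays 10.65 and 10.48. All exposed arrays were again below both control arrays, and the pool means were ordered by dose. The differences at the lower doses were -0.34 and -0.43 (adjusted p = 0.11 and 0.0956, limma), and the change at 100 ppb was -32.2%.

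These 3 calls depended on single arrays and on the scaling, as did the number called among all tested probe sets. Without array 1 of the control pool the adjusted p was 0.145 for rpl5a, 0.0871 for rpl29 and 0.083 for rpl22, and without array 2 of that pool it was 0.0674, 0.124 and 0.0829. Without array 2 of the 100 ppb pool it was 0.184, 0.17 and 0.124, and rpl5a was also lost without array 1 of that pool, at 0.0898. With each array centred on its median the differences were -0.68 for rpl5a, -0.41 for rpl29 and -0.36 for rpl22 (adjusted p = 0.153, 0.3 and 0.375), and in the deposited scaling they were -0.77, -0.50 and -0.44, each with an adjusted p of 1. Within day 2 the difference at 100 ppb was -0.79 for rpl5a, -0.44 for rpl29 and -0.48 for rpl22, and within day 3 it was -0.73, -0.79 and -0.64. All 3 genes were lower on both days, which had to follow because both 100 ppb arrays lay below both control arrays. The 2 days hold technical repeats of the same pools. With day as a block, limma called 34 members at 100 ppb, 33 lower and rplp2b higher, where 21.4% of all tested probe sets were called and 10.7% were lower. With the array number as a block, which equals the day except for array 1 at 10 ppb, it called 7 members (8.97%) lower. Of all tested probe sets 6.45% were called there and 3.7% were lower. Under cyclic loess it called 6 members (7.69%) lower, where 5.54% of all were called and 3.33% were lower. With only the 0 and 100 ppb pools in the fit it called 13 (16.7%) lower, where 12.6% of all were called and 6.7% were lower.

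**Figure D1:**
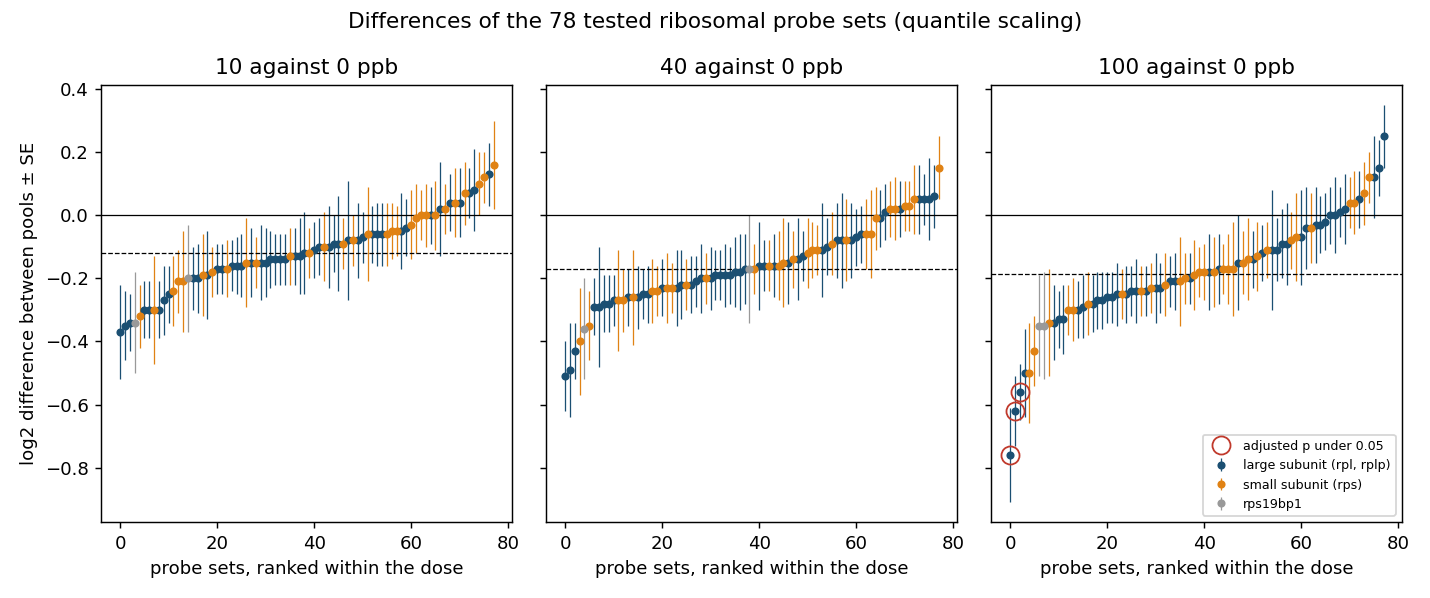
Log2 difference from the control pool ± SE for each of the 78 tested ribosomal probe sets, ranked within each dose (quantile scaling), coloured by subunit. The dashed line is the median of the 78, at -0.12, -0.17 and -0.18 at 10, 40 and 100 ppb, which becomes 0.01, 0.04 and 0.04 when arrays are centred on their median; red rings mark rpl5a, rpl29 and rpl22, called at 100 ppb.

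Differences of the whole family were small and their sign depended on how arrays were scaled. In the quantile scaling the median difference of the 78 members was -0.12 at 10 ppb, -0.17 at 40 ppb and -0.18 at 100 ppb, beside -0.02, 0.01 and 0 for all tested probe sets, whereas with arrays centred on their median it was 0.01, 0.04 and 0.04, beside -0.04, 0.06 and 0.02. Cyclic loess gave -0.11, -0.17 and -0.22. The deposited scaling gave -0.29, 0.11 and -0.05, where all tested probe sets had medians of -0.34, 0.14 and -0.07. The 3 comparisons share the control pool.

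The median of the members on each array shows the same dependence. Quantile scaled, it read 11.41 and 11.37 on the control arrays, 11.36 and 11.26 in the 10 ppb pool, 11.28 and 11.31 in the 40 ppb pool, and 11.24 and 11.27 in the 100 ppb pool, so that every exposed array lay below both control arrays. Centred on the array median, it read 11.34 and 11.20 for control, 11.49 and 11.04 in the 10 ppb pool, 11.36 and 11.35 in the 40 ppb pool, and 11.36 and 11.24 in the 100 ppb pool, and the control arrays lay within the range of the exposed ones. The values of the 10 ppb pool spread furthest in that scaling, where the median over members of array 2 minus array 1 was -0.48.

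**Figure D2:**
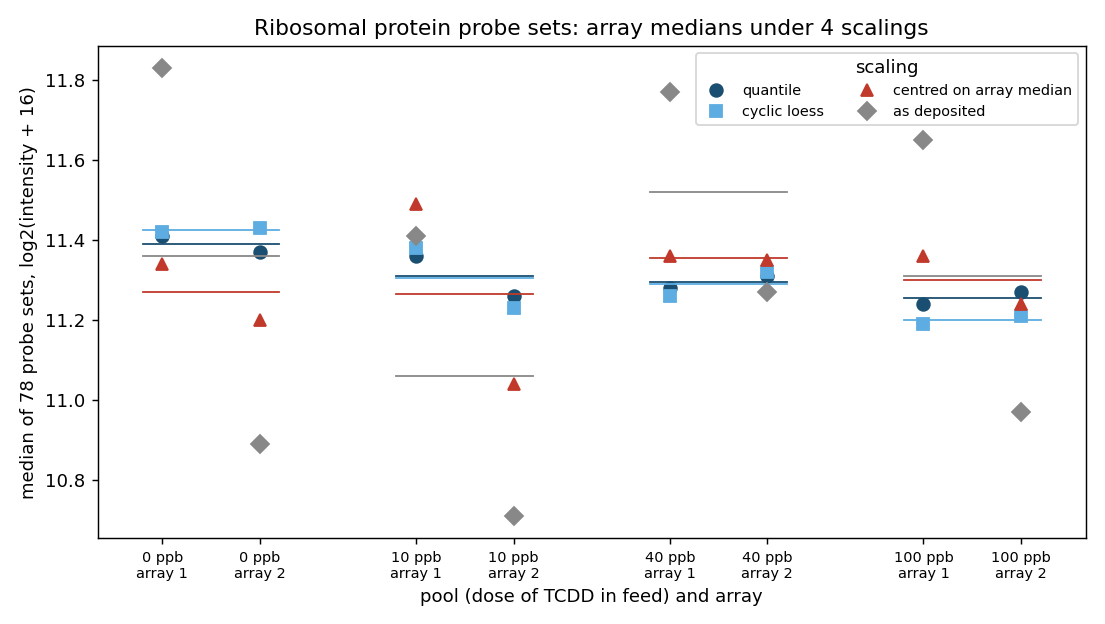
Median log2(intensity + 16) of the 78 tested ribosomal probe sets on each of the 8 arrays under 4 scalings; horizontal lines are the means of the 2 arrays of a pool. The exposed pools lie below the control pool in the quantile and loess scalings, not when arrays are centred on their median (control 11.34 and 11.20, 100 ppb 11.36 and 11.24), and the deposited values separate the 2 arrays of a pool.

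A comparison within the brightest probe sets narrows the difference in level of signal but does not match it. On array 1 of the control pool the members had a median of 11.43 there and the others of 10.15 (quantile). In the brightest 10% of tested probe sets, the 71 ribosomal members had a median difference at 100 ppb of -0.18 and the 859 others of 0.02 (quantile). Centred on array medians the values were 0.06 and 0.19, and in the deposited scaling -0.02 and 0.10. At 40 ppb the medians were -0.16 and 0.02 in the quantile scaling and 0.05 and 0.19 when centred, and at 10 ppb they were -0.10 and 0, and 0.01 and 0.05. The members' median was below that of the other bright probe sets at each dose in the quantile, loess, median and deposited scalings. Its sign was not the same in all of them. Centring shifts whole arrays, so this gap to the other bright probe sets must be the same in the median and deposited scalings.

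That gap, taken within each array and so free of any shift of a whole array, was 1.17 and 1.32 on the control arrays in the deposited log2 values. It was 1.34 and 1.15 in the 10 ppb pool, 1.14 and 1.25 in the 40 ppb pool, and 1.10 and 1.18 in the 100 ppb pool. In these deposited values the lower control array lay within the range of each exposed pool, so the groups overlapped over both days. In the quantile scaling the gap was 1.29 and 1.28 for control and 1.3 and 1.16 at 10 ppb. It was 1.16 and 1.18 at 40 ppb, and 1.14 and 1.17 at 100 ppb. Cyclic loess gave 1.27 and 1.35, 1.29 and 1.16, 1.16 and 1.23, and 1.08 and 1.11. In both scalings the 10 ppb pool overlapped with control, and the 40 and 100 ppb arrays lay below both control arrays. Within a day each pool had no more than 1 array, so ranges could not overlap there. In the deposited values the gap on day 2 was 1.17 for control against 1.14 at 40 ppb and 1.10 at 100 ppb. On day 3 it was 1.32 against 1.15, 1.25 and 1.18 at 10, 40 and 100 ppb. Each exposed gap on these days was below the control gap of its day. The share of summed intensity was likewise lower on each exposed array than on the control array of its day, at 5.76% and 5.68% against 5.97% on day 2, and at 5.57%, 5.86% and 5.97% against 6.38% on day 3. Array 1 at 10 ppb had no control array on its day, and these differences rest on 1 control array per day and were not tested.

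**Figure D3:**
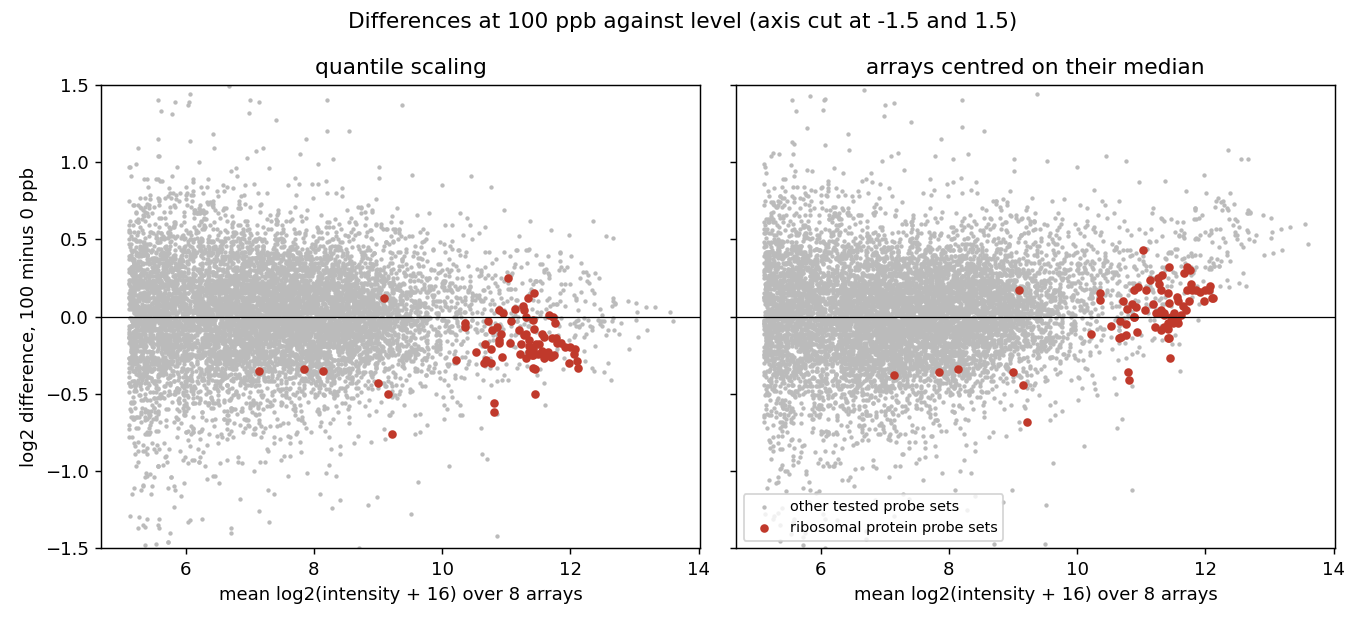
Log2 difference between the 100 ppb and control pools against mean log2(intensity + 16) over the 8 arrays, for the 78 ribosomal probe sets (red) and the other tested probe sets (grey), in the quantile scaling (left) and with arrays centred on their median (right); axes end at -1.5 and 1.5. The ribosomal probe sets have a median of -0.18 at left and 0.04 at right, and other bright probe sets shift upward at right as well.

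**Figure D4:**
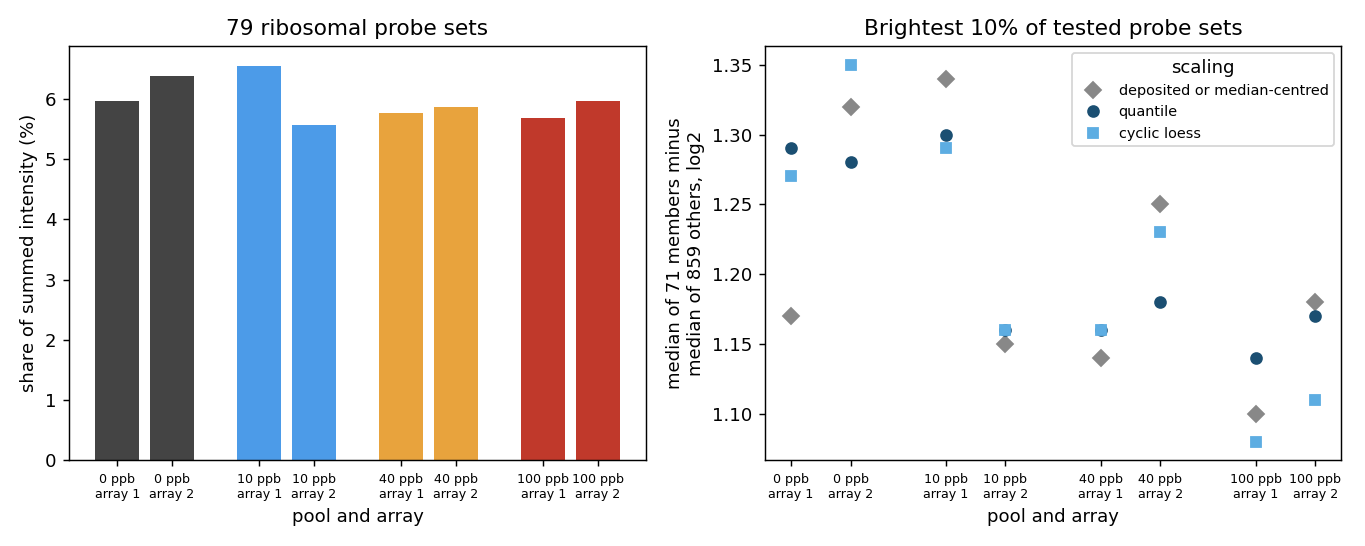
Left, the share of summed intensity held by the 79 ribosomal probe sets on each array (bars from 0, coloured by dose). Right, the median of the 71 ribosomal probe sets in the brightest 10% minus the median of the 859 others there, per array and scaling; the deposited values run from 1.10 to 1.34, and the 100 ppb arrays (1.10 and 1.18) overlap with the control arrays (1.17 and 1.32).

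At 10 ppb, limma called 0 ribosomal probe sets, where 2.43% of all tested probe sets were called, and 11 members were lower and 0 higher at an unadjusted p under 0.05 (8.25% and 6.77% of all). At 40 ppb it called 0, where 0.613% of all were called, with 24 lower and 0 higher at an unadjusted p under 0.05 (5.78% and 5.87% of all). With day as a block it called 6 members (7.69%) lower at each of these doses, rpl5a at both and rps27.1 by a different probe set at each. Of all tested probe sets 6.64% and 4.64% were called there, and 3.19% and 2.53% were lower. Day 1 held only array 1 of the 10 ppb pool, so the day block fits that array exactly. The 10 ppb result with this block therefore rests on array 2 alone, with rpl5a at -0.46. It carries no measure of the spread between the 2 arrays of that pool. In the quantile scaling both exposed arrays lay below both control arrays for 36 members at 10 ppb, 49 at 40 ppb and 54 at 100 ppb, where 22.5%, 23.3% and 28.9% of all tested probe sets did. They lay above for 3, 3 and 4 members, where 19%, 24.5% and 29.5% did. With arrays centred on their median the counts at 100 ppb turned to 12 below and 25 above, beside 20.5% and 25.4% of all.

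Within days, the median of the members in the quantile scaling was -0.18 at 10 ppb (day 3), -0.16 and -0.17 at 40 ppb (days 2 and 3), and -0.19 and -0.15 at 100 ppb. Centred on array medians the same values were -0.18, then 0.04 and 0.06, then 0.02 and 0.06. All tested probe sets then had medians of 0, then 0.02 and 0.11, then 0.01 and 0.03. In the quantile scaling their medians lay between -0.01 and 0.01. The members' values on day 3 at 10 ppb thus had the same sign in both scalings, and those at 40 and 100 ppb did not.

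Between exposed pools limma called 0 members. For 40 against 10 ppb, where 1.47% of all tested probe sets were called, 1 member was lower and 0 higher at an unadjusted p under 0.05 (4.41% and 5.37% of all). For 100 against 10 ppb, where 3.57% were called, 8 were lower and 0 higher (8.41% and 9.27% of all). For 100 against 40 ppb, where 0.892% were called, 1 was lower and 1 higher (6.59% and 5.2% of all). The smallest p of 100 against 10 ppb was that of rpl5a, at -0.39 ± 0.15 (adjusted p = 0.201, limma), and that of 100 against 40 ppb was that of rpl11, at -0.35 ± 0.14 (adjusted p = 0.347, limma).

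With the pools as samples, limma called 0 members for the 3 exposed pools against the control pool, where 0% of all tested probe sets were called. At an unadjusted p under 0.05, 16 members were lower and 0 higher (3.8% and 3.74% of all). The smallest p-values there were those of rpl29, at -0.49 ± 0.12, rpl22, at -0.44 ± 0.11, and rpl17, at -0.31 ± 0.08, each with an adjusted p of 0.648. For the slope over dose rank limma again called 0 members, where 0.0215% of all were called, and 21 were lower and 0 higher at an unadjusted p under 0.05 (5.78% and 6.4% of all). The steepest was rpl5a, at -0.24 ± 0.04 per dose step (adjusted p = 0.248, limma), followed by rpl29 at -0.20 and rpl22 at -0.18. These fits have 2 residual degrees of freedom and take the single control pool to vary like the exposed ones.

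The pool means of 24 of the 78 members (30.8%) were lower at each step from 0 to 10, 40 and 100 ppb in the quantile scaling, beside 607 of 9301 (6.53%) of all tested probe sets, and 1 member, rps10, was higher at each step, beside 738 (7.93%) of all. Centred on array medians, 6 members (7.69%) were lower and 13 (16.7%) higher at each step, beside 408 (4.39%) and 923 (9.92%) of all.

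Large subunit genes, with 46 tested probe sets, had median differences of -0.13, -0.18 and -0.21 at 10, 40 and 100 ppb in the quantile scaling, and of -0.01, 0.03 and 0.06 when arrays were centred on their median. Small subunit genes, with 30, had -0.07, -0.14 and -0.18 in the quantile scaling, and 0.03, 0.09 and 0.03 when centred. Each of these signs turned with the scaling except that of the large subunit at 10 ppb, and the difference between them was not tested.

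The ribonucleoprotein of 5S ribosomal RNA contains the products of the rpl5 genes and of rpl11, which in mammalian cells bind Mdm2 and stabilise p53 when ribosome assembly is disturbed. The probe set of rpl11 read 11.79 and 11.54 on the control arrays, 11.67 and 11.27 in the 10 ppb pool, 11.53 and 11.48 in the 40 ppb pool, and 11.26 and 11.06 in the 100 ppb pool. The arrays at 40 and at 100 ppb lay below both control arrays, and those at 100 ppb below all arrays of the other pools, with a difference there of -0.50 ± 0.14 (adjusted p = 0.0613, limma), which passed under cyclic loess (adjusted p = 0.0409). With arrays centred on their median it was -0.27 (adjusted p = 0.535), and the 100 ppb and control arrays overlapped. The second rpl5 gene, rpl5b, read 11.74 and 11.51 for control, 11.63 and 11.32 in the 10 ppb pool, 11.45 and 11.34 in the 40 ppb pool, and 11.36 and 11.20 in the 100 ppb pool, a difference of -0.34 ± 0.12 at 100 ppb (adjusted p = 0.126, limma), which was -0.14 with overlapping arrays when centred.

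The difference between the probe sets of rpl5a and rpl5b, both taken on the same array, was -2.00 and -2.02 for control, -2.21 and -2.26 in the 10 ppb pool, -2.25 and -2.29 in the 40 ppb pool, and -2.42 and -2.45 in the 100 ppb pool (quantile). It was lower on all exposed arrays than on both control arrays, by 0.42 at 100 ppb, and by 0.54 in the deposited log2 values. This pair was chosen after its values were seen and was not tested. The value compares how far each probe set moved and not how abundant the transcripts are.

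The paralog of rpl22, rpl22l1, is repressed by rpl22 in mice. Its probe set read 9.01 and 9.05 on the control arrays, 8.96 and 9.25 in the 10 ppb pool, 9.15 and 9.01 in the 40 ppb pool, and 9.25 and 9.04 in the 100 ppb pool. The pools overlapped, and the difference at 100 ppb was 0.12 ± 0.13 (adjusted p = 0.63, limma). Taken on the same array, rpl22 minus rpl22l1 was 2.12 and 2.07 for control, 1.89 and 1.48 in the 10 ppb pool, 1.59 and 1.65 in the 40 ppb pool, and 1.40 and 1.44 in the 100 ppb pool. This pair too was chosen after its values were seen, and its difference of -0.68 between the 100 ppb and control pools (-0.53 in the deposited log2 values) was not tested.

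**Figure D5:**
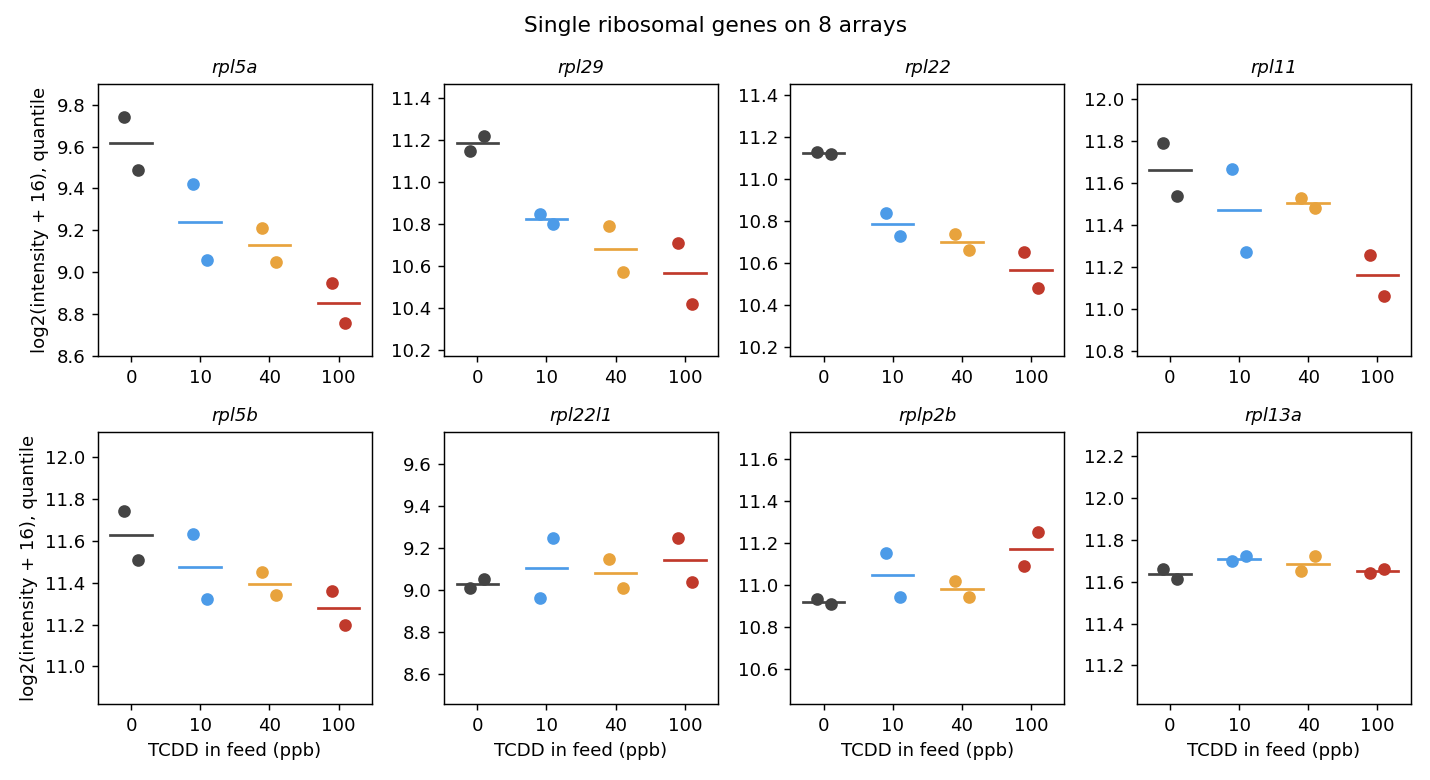
Quantile scaled log2(intensity + 16) of 8 ribosomal genes, 2 arrays per pool (points) with the pool mean (line); each panel spans the same height of the log2 scale around its own centre. The called genes rpl5a, rpl29 and rpl22 lie lower on every exposed array than on both control arrays, and rpl22l1 and rpl13a do not.

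The stalk, which recruits the elongation factors to the ribosome, was represented by rplp0, rplp2 and rplp2b. The probe set of rplp2b read 10.93 and 10.91 on the control arrays, 11.15 and 10.94 in the 10 ppb pool, 11.02 and 10.94 in the 40 ppb pool, and 11.09 and 11.25 in the 100 ppb pool. It was the highest difference among the members at 100 ppb, at 0.25 ± 0.10 (adjusted p = 0.167, limma). In this quantile scaling every exposed array was above both control arrays. Under cyclic loess the 10 and 40 ppb arrays overlapped with control, and centred on array medians the 10 ppb arrays did. Both 100 ppb arrays stayed above control in these scalings, with differences of 0.19 and 0.43. The deposited values overlapped at every dose. The differences of rplp0 and rplp2 at 100 ppb were -0.21 ± 0.08 and -0.03 ± 0.09 (adjusted p = 0.144 and 0.865, limma), and that of rplp0 is above 0 when arrays are centred on their median.

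Other members with the lowest differences at 100 ppb were the probe sets of rps27.1, a small subunit protein with a zinc finger. Its 3 probe sets differed from control by -0.50 ± 0.16, -0.43 ± 0.11 and -0.21 ± 0.14 (adjusted p = 0.104, 0.0524 and 0.4, limma). The last of these is the brightest. With arrays centred on their median it was at -0.05, and its 100 ppb and control arrays overlapped. The dimmer ones were then at -0.44 and -0.36. The one at -0.43 read 9.32 and 9.20 for control, 9.10 and 8.93 in the 10 ppb pool, 8.93 and 8.89 in the 40 ppb pool, and 8.85 and 8.82 in the 100 ppb pool, with all exposed arrays below both control arrays. Its paralog rps27l, a p53 target in human cells, had a difference of -0.34 ± 0.17 (adjusted p = 0.248, limma).

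The protein encoded by rps2 lies at the entry of the mRNA channel of the small subunit. Its probe set read 12.14 and 12.13 on the control arrays and 11.75 and 11.91 at 100 ppb, with -0.30 ± 0.08 in the quantile scaling (adjusted p = 0.059, limma) and 0.10 when arrays were centred on their median. Of the 2 probe sets of rpl3, a protein near the peptidyl transferase centre, 1 differed by -0.29 ± 0.10 and the other by -0.02 ± 0.09. Both probe sets of rps19bp1 were at -0.35 (SE 0.16 and 0.17). None of these passed, and both rpl3 probe sets were above 0 when arrays were centred on their median, at 0.12 and 0.15.

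At 100 ppb the ubiquitin fusion gene rps27a differed by -0.04 ± 0.11 and rpsa, the homolog of the laminin receptor precursor, by -0.11 ± 0.09, but by 0.30 and 0.13 when arrays were centred on their median. The highest differences after rplp2b were those of rpl8, at 0.15 ± 0.09, and of rps9 and rpl22l1, both at 0.12. For rpl13a, a gene often used as a reference in zebrafish and looked up for that reason after values were seen, the difference was 0.01 ± 0.08 in the quantile scaling and 0.28 ± 0.15 when arrays were centred on their median, and neither passed.

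Genes that serve the ribosome were counted in the same fit from lists chosen by function. Of 68 tested ribosome biogenesis genes, each by its brightest probe set, 1 rose and 1 fell at 10 ppb, 1 fell at 40 ppb and 0 passed in limma at 100 ppb. Of all tested probe sets 2.43%, 0.613% and 5.17% passed at these doses. At 100 ppb 11 of the 68 were lower and 3 higher at an unadjusted p under 0.05 (11.7% and 11.5% of all tested probe sets). The helicase genes ddx56 (0.71 ± 0.12 at 10 ppb, adjusted p = 0.0142) and ddx52 (-0.93 ± 0.17 at 10 ppb and -0.99 at 40 ppb, adjusted p = 0.0191 and 0.0366) were those that passed in limma; the probe set of ddx52 is of a type that may bind other transcripts. The median of the list at 100 ppb was -0.06. Over all 81 probe sets of the list, 2 rose and 1 fell at 100 ppb, each a dimmer probe set of its gene. They were those of snu13a (1.44 ± 0.27, brighter probe set 0.47 ± 0.22), of npm1a, which encodes the nucleolar protein nucleophosmin (1.09 ± 0.23, with 1 control array under the tag control level, brighter probe set -0.10 ± 0.10), and of fcf1 (-0.60 ± 0.14, brighter probe set -0.34 ± 0.13).

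Of 35 tested genes of the translation factor list, which also holds naca, btf3, tpt1 and hnrnpa1b, limma called 0 at 10 and 40 ppb. At an unadjusted p under 0.05, 3 were lower and 1 higher at 10 ppb (8.25% and 6.77% of all tested probe sets). At 40 ppb 5 were lower and 1 higher (5.78% and 5.87% of all), and at 100 ppb 4 and 1 (11.7% and 11.5% of all). A single gene of the list passed the adjusted threshold, at 100 ppb. It was eif3ba, a subunit of initiation factor 3, which fell by 0.73 ± 0.11 (adjusted p = 0.00442, limma) from 9.46 and 9.48 on the control arrays to 8.83 and 8.64. The list's median at 100 ppb was -0.11. Of 59 mitochondrial ribosomal protein genes, mrpl2 fell by 0.80 ± 0.14 at 10 ppb (adjusted p = 0.0148) and mrps6 rose by 0.71 ± 0.11 at 100 ppb (adjusted p = 0.00503), and the median at 100 ppb was -0.06. At 40 ppb limma called 0 of these genes. Calls among all tested probe sets made up 2.43%, 0.613% and 5.17% with rising dose. At 10 ppb 6 mitochondrial genes were lower and 1 higher at an unadjusted p under 0.05 (8.25% and 6.77% of all). The counts were 7 and 1 for the 40 ppb pool (5.78% and 5.87% of all). For the 100 ppb pool they were 9 and 4 (11.7% and 11.5% of all). A dimmer probe set of mrps15 also fell in the 100 ppb pool, by 0.60 ± 0.13. Of 3 further components of the cytosolic ribosome under other symbols, faua, faub and rack1, 0 passed in limma at any dose, and 0 were lower or higher at an unadjusted p under 0.05. With arrays centred on their median the medians of these 4 lists at 100 ppb were -0.02, -0.01, -0.02 and 0.14. In limma, eif3ba (-0.68, adjusted p = 0.0793), mrps6 (0.75, adjusted p = 0.053) and ddx56 at 10 ppb (0.65, adjusted p = 0.121) then no longer passed, with differences close in size. Still passing in limma were mrpl2 at 10 ppb (-0.84, adjusted p = 0.0238) and ddx52 at 10 and 40 ppb (-0.95 and -0.96, adjusted p = 0.00621 and 0.0179).

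Other quantities differed between the pools beside these results. For gapdh, the 3' signal divided by the 5' signal was 1.38 and 1.34 on the control arrays, 1.22 and 1.52 in the 10 ppb pool, 1.23 and 1.16 in the 40 ppb pool, and 0.949 and 1.06 in the 100 ppb pool. The summed share of the 7 germ cell markers was 0.486% and 0.538% for control and lay between 0.578% and 0.679% on the 6 exposed arrays, all above both control arrays. Their median level (quantile) was 11.11 and 11.08 for control, 10.77 and 11.08 in the 10 ppb pool, and 11.13 and 11.15 in the 40 ppb pool. In the 100 ppb pool it was 10.77 and 10.66, below control, so the sum and the median differed in direction there. The summed share of 4 muscle and epithelium markers was 0.0552% and 0.0636% for control, 0.0490% and 0.0399% in the 10 ppb pool, 0.0290% and 0.0270% in the 40 ppb pool, and 0.0188% and 0.0179% in the 100 ppb pool. For 6 leukocyte markers it was 0.0140% and 0.0131% for control, 0.0129% and 0.0105% in the 10 ppb pool, 0.00659% and 0.00613% in the 40 ppb pool, and 0.00502% and 0.00526% in the 100 ppb pool. The summed shares of these 2 lists were lower in each pool than in the pool of the next lower dose. The ribosomal calls were made at the dose where these shares were lowest. The median level (quantile) of the leukocyte markers overlapped at 10 ppb, at 5.66 and 5.98 against 5.83 and 5.80 for control. It was 5.48 and 5.40 at 40 ppb and 5.26 on both 100 ppb arrays, near the filter level of 5.11. The markers marco and mpx read below the tag controls on both 100 ppb arrays. For 3 red blood cell markers the summed share was 0.0137% and 0.0142% for control, and between 0.0114% and 0.0154% on the 10 and 40 ppb arrays. In the 100 ppb pool it was 0.00465% and 0.00527%. Their median level (quantile) was already lower at 10 ppb, at 5.38 and 5.37 against 6.04 and 6.37 for control. It was 5.13 and 5.17 at 40 ppb, and 4.95 and 4.87 at 100 ppb. For 12 liver markers the summed share was 0.0283% and 0.0292% for control, 0.504% and 0.136% in the 10 ppb pool, 0.0194% and 0.0212% in the 40 ppb pool, and 0.0316% and 0.0303% in the 100 ppb pool, and so was high at 10 ppb alone. The part of these differences in the ribosomal results was not tested.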

How the data were processed

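The authors deposited 1 linear intensity per probe set and array, MAS5 signals per the submitters' processing notes; neither version nor scaling target is stated there. Scanner and fluidics settings (another unit, per the file headers) gave only each array's day. The 115 controls among 15617 probe sets were excluded; the platform annotation gave 10795 of the rest 1 symbol, 135 several and 4572 none, and all 79 members had their gene identifier in a current table. Values were log2(intensity + 16), quantile normalized, and those above the 40th percentile of mean level (5.11) were tested. Differences on this scale understate changes of dim probe sets.

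Pools were compared with limma 3.58.1 in R 4.3.3 (group means over 8 arrays, 4 residual degrees of freedom, variance trend, Benjamini-Hochberg), which was tested on simulated data. Alternatives were other scalings, pseudocounts, filters, blocks and single arrays left out; centring on the ribosomal median was added after seeing the data. Members and lists were chosen with earlier results of these data known. Genes named are the called ones, the 5 highest and lowest differences per dose, the smallest p-values of the pool fits, the extremes of level, discordant probe sets and fixed roles; not every gene so selected is printed. Array numbers limit precision.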

Additional observations from a re-analysis of the deposited data

How the results depend on the processing

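Counts of called ribosomal probe sets at 100 ppb were 3 as reported (5.17% of all tested probe sets called). They were 0 with arrays centred on their median (3.94%), in the deposited scaling (0.14%), with a minimum log2 difference of 1 (1.25%) or with arrays centred on the ribosomal median (2.54%). Higher counts were 6 under cyclic loess (5.54%), 7 with a replicate block (6.45%), 13 with only the compared pools (12.6%) and 34 with a day block (21.4%). Leaving out 1 array gave 0 to 21: 0 without either control array or without array 2 at 100 ppb, and 20 and 21 without array 1 or 2 at 10 ppb (13.8% and 14% of all). At 40 ppb, where 0 were reported, 4 of 22 alternatives gave more than 0. A day block gave 6 (4.64%) and only the compared pools 2 (1.64%). The others left out array 1 or array 2 at 10 ppb, so that 1 array of that pool remained in the fit. At 10 ppb a day block gave 6 (6.64%) and leaving out 1 array 0 to 2, for 100 against 10 ppb leaving out 1 array gave 0 to 5 (5 without array 2 at 10 ppb, 4.61%), and for 100 against 40 ppb a day block gave 1 (5.39%). The differences of rpl5a, rpl29 and rpl22 at 100 ppb were -0.76, -0.62 and -0.56 with and without a day block. That block fits array 1 at 10 ppb exactly, so its 10 ppb values rest on array 2 alone. It thereby leaves the spread between the 2 arrays at 10 ppb out of the estimate of array spread. The part of that spread in these counts was not tested. Counts of both pool fits stayed at 0 in 19 alternatives.

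Medians at 10, 40 and 100 ppb, reported as -0.12, -0.17 and -0.18, were 0.01, 0.04 and 0.04 centred on array medians, -0.29, 0.11 and -0.05 as deposited, and 0.02, -0.04 and 0.02 centred on the ribosomal median, which removes the family's own shift by construction. At 10 ppb a day block gave -0.18, and leaving out 1 array -0.19 to -0.07. The calls of rpl22 and rpl29 held in 15 of 22 alternatives and that of rpl5a in 14, with the lower direction in all 22. For these genes both 100 ppb arrays lay below both control arrays in the quantile scaling. Alternatives that reuse those values could therefore not change the direction.

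Same-numbered arrays shared a day except array 1 at 10 ppb. Their deviations correlated at 0.214, 0.143 and 0.298 among the 0, 40 and 100 ppb pools and at 0.0126 to 0.0464 with the 10 ppb pool. The replicate block changed no other count of calls. A single control pool, 2 arrays per pool and an unknown scaling target limit what can be resolved.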
